A study of Mus musculus with 2 samples.

Results

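The calcium/calmodulin-dependent (CaM) kinase family was described here through 10 genes, chosen by name, of 55536 annotated genes in the tables. They comprise the kinase II genes Camk2a, Camk2b, Camk2d and Camk2g, the kinase II inhibitors Camk2n1 and Camk2n2, Camk4, the upstream kinases Camkk1 and Camkk2, and the kinase-like gene Camkv. Their RNA was measured by total RNA sequencing in 2 libraries of the left cerebral cortex of female mice of the first-generation hybrid strain B6CASTF1/J, aged 25 days, here called replicates 2 and 1. Each preparation started from 300 ng of RNA, to which ERCC standards (synthetic spike-in RNAs) had been added. No allele, agent or treatment sets them apart. The labels give the animals different numbers but a single donor identifier. If they are 1 animal, the spread between the libraries covers preparation, and possibly the sampling of the tissue, but no variation between animals. The samples form a single group, so the comparisons available were between genes, between transcripts of a gene, and between the libraries.

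CaM kinases turn a rise in calcium into protein phosphorylation. Calcium-loaded calmodulin opens the kinase, and kinase II, whose subunits assemble into a ring of mixed α, β, γ and δ chains, can stay active afterwards by phosphorylating itself. Kinase II is among the most abundant proteins of forebrain excitatory synapses and is known for its part in long-term potentiation. Kinases I and IV instead need a second kinase, Camkk1 or Camkk2, to phosphorylate them.

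All 10 genes were detected, meaning a level of at least 1 TPM (a level per gene corrected for transcript length and library size) in both libraries, against 58.7% of nuclear protein-coding genes. Of the 10 genes, 7 lay among the highest 10% of the 12933 detected nuclear protein-coding genes, and the median of the family was a TPM of 131, against a TPM of 16.02 for detected genes as a whole. Together the family held a TPM of 2673 in replicate 2 and 2617 in replicate 1. The tables hold 27079663 expected counts in annotated genes for replicate 2 and 31191506 for replicate 1. Within these, the family genes had between 1272 counts (Camk2n2, replicate 2) and 80844 counts (Camk2a, replicate 1). Counts of all 10 genes lay within 0.05 of a whole number in both libraries, against 85.8% of detected genes, so few of their reads were divided with other genes. In bulk RNA, fewer cells of a type and less RNA per cell cannot be told apart.

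**Figure D1:**
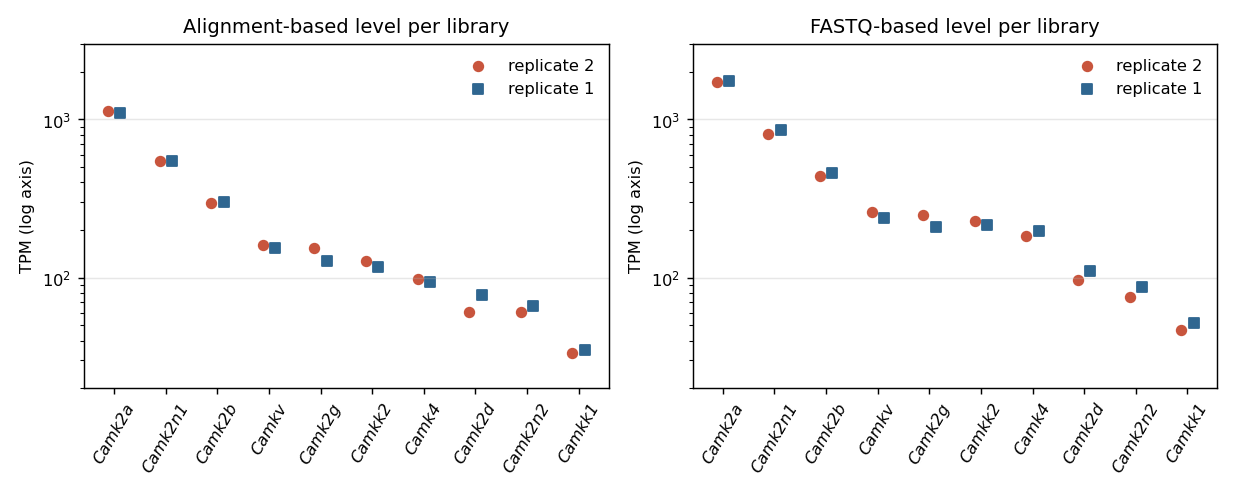
Level of each family gene as TPM on a log axis, in the alignment-based tables at the left and the FASTQ-based tables at the right. Circles are replicate 2 and squares replicate 1, with 1 point per library. Camk2a lies highest and Camkk1 lowest in every library of both panels.

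Camk2a, which encodes the α subunit that predominates in forebrain kinase II, led all detected nuclear protein-coding genes in mean TPM. The gene (ENSMUSG00000024617.16) lies on the forward strand of chromosome 18 from 60925618 to 60988152 on mm10. It reached a TPM of 1138 in replicate 2 and 1103 in replicate 1, a mean of 1120.1 ± 24.7 (SD, n = 2, as for all means below). Camk2b encodes the β subunit, which binds actin filaments, and had a TPM of 297 in replicate 2 and 299 in replicate 1 (chromosome 11, 5969644 to 6066362, reverse strand). It ranked 152 of the 12933 detected genes. The 2 libraries differed by far less than the step between these genes.

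The γ and δ subunits are the forms found in many tissues outside the brain as well. Camk2g had a TPM of 153 in replicate 2 and 127 in replicate 1 (chromosome 14, 20734875 to 20794088, reverse strand). Camk2d had a TPM of 60.9 in replicate 2 and 77.6 in replicate 1 (chromosome 3, 126596302 to 126846326, forward strand). Replicate 2 was the higher library for Camk2g and the lower one for Camk2d, and their ranges did not overlap each other.

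Camk2a held 68.97% of the summed TPM of the 4 kinase II genes in replicate 2 and 68.6% in replicate 1 (68.8 ± 0.238%). Camk2b held 18.0% in replicate 2 and 18.6% in replicate 1, Camk2g 9.29% and 7.92% in the same order, and Camk2d 3.69% and 4.83%. The α and β shares therefore varied by less than 1 percentage point between libraries, and the γ and δ shares moved in opposite directions. Their joint share was 13.0% in replicate 2 and 12.8% in replicate 1. The FASTQ-based tables, made by a second quantification of the same reads, gave mean shares of 68.96 ± 0.489% for Camk2a, 17.8 ± 0.359% for Camk2b, 9.13 ± 1.21% for Camk2g and 4.12 ± 0.360% for Camk2d. Without correction for length, the shares of expected counts were 70.8 ± 0.909%, 19.7 ± 0.716%, 5.37 ± 0.501% and 4.10 ± 0.694% for the same genes.

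**Figure D2:**
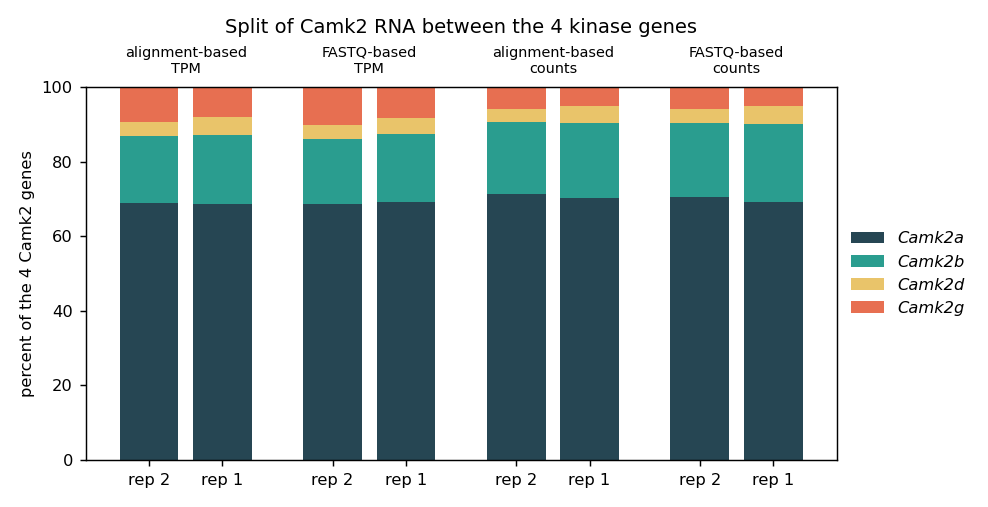
Percent of the summed kinase II signal held by Camk2a, Camk2b, Camk2d and Camk2g, stacked from bottom to top, for replicate 2 and replicate 1 in each of 4 units. Camk2a holds between 68.6% and 71.4% of every bar, and the Camk2g segment is larger in TPM than in counts.

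As ratios, Camk2a exceeded Camk2b 3.82-fold in replicate 2 and 3.69-fold in replicate 1, a mean log2 ratio of 1.91 ± 0.04. Camk2a exceeded Camk2d 18.7-fold in replicate 2 and 14.2-fold in replicate 1 (log2 4.03 ± 0.28). The δ-to-γ ratio had the largest SD of the 9 pairs in each of the 4 units. Camk2d stood at 0.397 of Camk2g in replicate 2 and 0.610 in replicate 1 (log2 TPM ratio −1.02 ± 0.44). Of the 2 subunits Camk2g was the higher in every library and unit. By counts, however, the log2 ratio was −0.40 ± 0.38, and much of the Camk2g TPM sat in short annotated transcripts described below. With 2 libraries an exact sign-flip test cannot go below p = 0.5, so none of these ratios has a test.

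Camk2n1 and Camk2n2 encode small proteins that bind the catalytic site of active kinase II and block it. Camk2n1 had a TPM of 545 in replicate 2 and 546 in replicate 1 and ranked 50 among detected genes (chromosome 4, 138454314 to 138460123, forward strand). Camk2n2 had a TPM of 61.1 in replicate 2 and 65.8 in replicate 1 (chromosome 16, 20619215 to 20621287, reverse strand). Camk2n1 thus exceeded Camk2n2 8.92-fold in replicate 2 and 8.29-fold in replicate 1 (log2 3.10 ± 0.07). In the FASTQ-based tables the excess was 10.8-fold in replicate 2 and 9.80-fold in replicate 1. Each inhibitor gene has 1 annotated transcript, 4444 nt long for Camk2n1 and 1291 nt for Camk2n2, and by uncorrected counts Camk2n1 was 31.4-fold higher.

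The coding sequences of the inhibitors, of 234 nt and 237 nt, were identical at 167 of 234 aligned positions. Their closest stretch of 90 bases was identical at 72 positions and is shown because the 2 transcripts can be told apart by reads that cover its differences. The stretch runs from base 73 to 162 of the Camk2n1 coding sequence (chr4:138455258-138455347, forward strand) and from base 76 to 165 of Camk2n2 (chr16:20621030-20621119, reverse strand). Sequences here and below are from the GENCODE M21 transcripts on mm10, 5′ to 3′, and capitals mark bases that differ between the lines.
Camk2n1: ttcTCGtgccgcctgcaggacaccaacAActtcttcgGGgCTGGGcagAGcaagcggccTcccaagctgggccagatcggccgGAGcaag
Camk2n2: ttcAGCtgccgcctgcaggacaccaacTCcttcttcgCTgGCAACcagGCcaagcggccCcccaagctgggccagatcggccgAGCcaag

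Set against the kinases, the summed inhibitors had a TPM of 606 in replicate 2 and 612 in replicate 1, and the summed kinase II genes 1649 and 1607 in the same order. The inhibitors therefore stood at 0.367 of the kinase II level in replicate 2 and 0.381 in replicate 1 (log2 −1.42 ± 0.04). Camk2n1 alone stood at 0.479 of Camk2a in replicate 2 and 0.495 in replicate 1 (log2 −1.04 ± 0.03). Camk2n2 lies within the span of Gm49333 on the opposite strand, and Gm49333 had 0 counts in both libraries.

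Camkk1 and Camkk2 encode the kinases that switch on kinases I and IV, and Camkk2 also phosphorylates the energy sensor AMPK. Camkk2 had a TPM of 127 in replicate 2 and 116 in replicate 1 (chromosome 5, 122731170 to 122779409, reverse strand). Camkk1 was the lowest gene of the family, with a TPM of 33.2 in replicate 2 and 34.7 in replicate 1 (chromosome 11, 73019008 to 73042073, forward strand). Camkk2 exceeded Camkk1 3.82-fold in replicate 2 and 3.35-fold in replicate 1 (log2 1.84 ± 0.13). The FASTQ-based tables gave a wider gap, 4.90-fold in replicate 2 and 4.15-fold in replicate 1.

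Camk4, a kinase known for phosphorylating CREB in the nucleus, had a TPM of 97.9 in replicate 2 and 93.7 in replicate 1 (chromosome 18, 32934931 to 33191228, forward strand). It stood at 0.771 of Camkk2 in replicate 2 and 0.806 in replicate 1. Camkv encodes a vesicle-associated protein that resembles a CaM kinase but lacks kinase activity. It had a TPM of 160.0 in replicate 2 and 154 in replicate 1 (chromosome 9, 107935674 to 107949691, forward strand). It stood at 0.141 of Camk2a in replicate 2 and 0.140 in replicate 1, and in the FASTQ-based tables at 0.152 in replicate 2 and 0.136 in replicate 1.

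In order of mean TPM the family ran Camk2a, Camk2n1, Camk2b, Camkv, Camk2g, Camkk2, Camk4, Camk2d, Camk2n2 and Camkk1. The steps from Camk2a to Camkv were each at least 1.83-fold, and the libraries of neighbouring genes did not overlap. Camk2d and Camk2n2 overlapped, and their order changed between libraries. Camk2g lay close to both of its neighbours, with a lower library at 127.3 beside 126.9 in the higher library of Camkk2, and an upper library at 153 beside 154 in the lower library of Camkv. In the FASTQ-based tables Camkv, Camk2g and Camkk2 overlapped in turn, while Camk2d stayed above Camk2n2 by 1.28-fold. Once both quantifications were rescaled over nuclear protein-coding genes, Camk2n2 was the only family gene that differed between them by more than 1.25-fold (1.26-fold higher in the alignment-based tables), against 18.5% of detected genes. Camk4 was lowest relative to its FASTQ-based level, at 0.808.

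Transcript use fell into genes with a single main product and genes with many. The annotation lists 92 transcripts for the 10 genes, 52 of them protein-coding, and 27 held at least 10% of their gene's TPM in some library and quantification. Of the 8 genes with several transcripts, 7 had the same leading transcript in both libraries, against 88% of protein-coding genes with several transcripts. The same 7 kept it in both quantifications as well, against 64.2% of such genes, and 6 had a leading transcript with at least 50% of the TPM in both libraries, against 61.3%. Camk2g was the gene whose leading transcript changed, and Camk2d had a fixed leader below 50%.

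**Figure D3:**
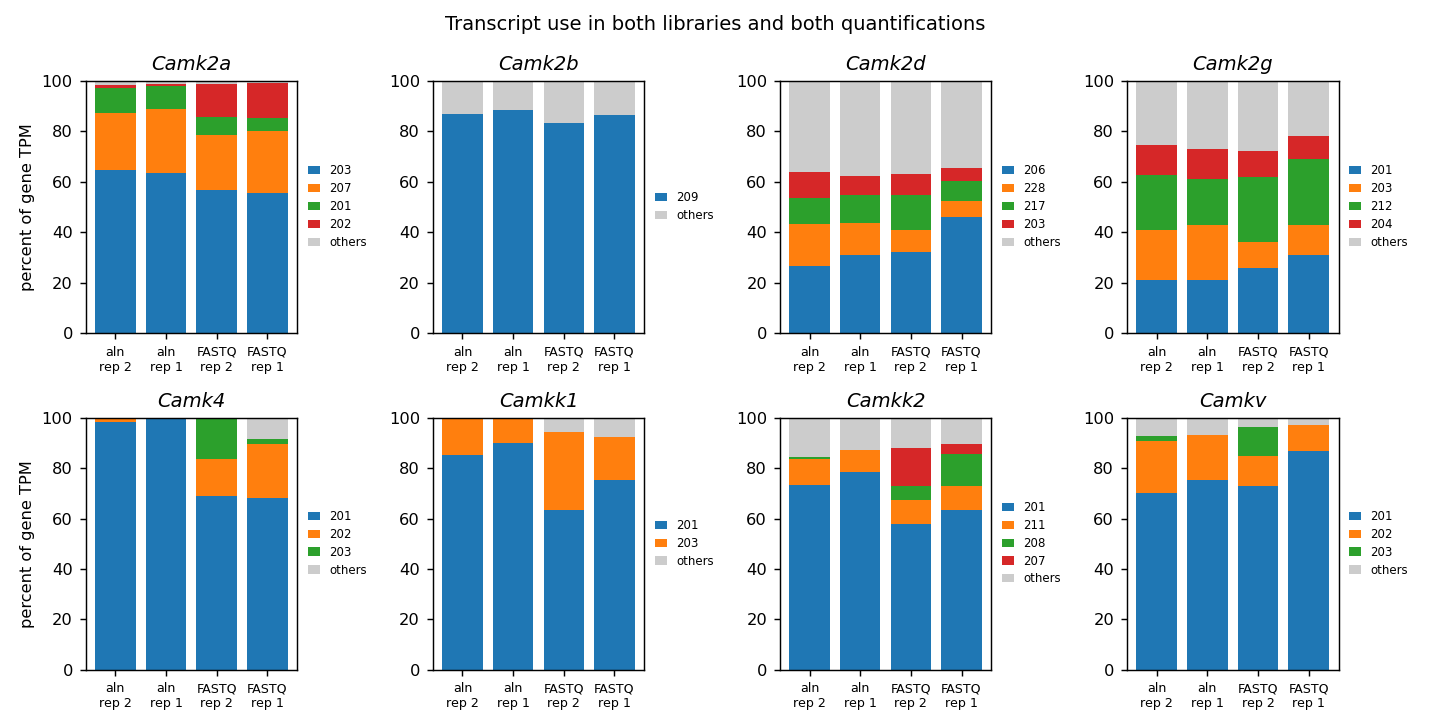
Percent of gene TPM held by each transcript with at least 10% in any bar, for replicate 2 and replicate 1 in the alignment-based (aln) and then the FASTQ-based tables; numbers are the annotation's transcript suffixes and grey is the sum of all others. Camk2b and Camk4 have 1 dominant transcript in the alignment-based bars, whereas the largest Camk2d and Camk2g segments stay below 50%.

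Camk2a-203, which encodes the full α subunit from a coding sequence of 1434 nt, held 64.6% of Camk2a TPM in replicate 2 and 63.5% in replicate 1. In the FASTQ-based tables it held 56.9% and 55.7% in the same order. Camk2a-207 was the next transcript by TPM, with 22.5% in replicate 2 and 25.2% in replicate 1. It is only 530 nt long and is annotated with an incomplete end, and it took 2.69% of Camk2a counts in replicate 2 and 3.09% in replicate 1. Among complete protein-coding transcripts, Camk2a-203 held 84.7 ± 0.977% and Camk2a-201 12.8 ± 0.335% in the alignment-based tables. In the FASTQ-based ones Camk2a-203 held 73.8 ± 0.711% and Camk2a-201 7.95 ± 1.88%, behind Camk2a-202 with 17.5 ± 1.45%. Camk2a-201 has a coding sequence of 1467 nt and differs by inclusion of a 33-base exon, the insert known from αB.

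The quantifications disagreed on Camk2a transcripts that start inside the gene. Camk2a-202 and Camk2a-204 have short coding sequences of 567 nt and 600 nt without the kinase domain, the layout known for αKAP, an anchoring protein made from this gene in muscle. They held 2.06% of Camk2a TPM in replicate 2 and 1.38% in replicate 1 in the alignment-based tables, against 13.3% in replicate 2 and 14.3% in replicate 1 in the FASTQ-based tables. Most of the FASTQ-based signal was Camk2a-202, at 12.8% in replicate 2 and 13.9% in replicate 1. The difference between quantifications exceeded that between libraries, and the level of these forms is not settled by the tables. Markers of cardiac and skeletal muscle were low, with a summed TPM of 17.9 in replicate 2 and 17.3 in replicate 1. Of these, 3 of 4 genes were detected, against 58.7% of nuclear protein-coding genes.

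Camk2b RNA was nearly uniform. Camk2b-209, with a coding sequence of 1626 nt, held 87.1% of Camk2b TPM in replicate 2 and 88.6% in replicate 1, and 97.2 ± 0.403% of the complete protein-coding transcripts. The FASTQ-based share among those transcripts was 91.3 ± 1.06%. No other complete coding Camk2b transcript passed a mean of 4% in either quantification.

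Camk2d RNA was spread over many transcripts. Camk2d-206 led with 26.8% of TPM in replicate 2 and 30.8% in replicate 1, and with 32.0% in replicate 2 and 46.1% in replicate 1 in the FASTQ-based tables. Camk2d-228 held 16.5% in replicate 2 and 12.8% in replicate 1, and Camk2d-203 10.2% and 7.54% in the same order. Camk2d-206 and Camk2d-203 both have coding sequences of 1536 nt and differ in which of a pair of alternative exons they use. Camk2d-217, a 618 nt transcript with no coding sequence, held 10.4% in replicate 2 and 11.2% in replicate 1.

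Camk2g had no leader that held across libraries. Camk2g-212 led in replicate 2 with 21.7%, and Camk2g-203 led in replicate 1 with 21.7%, in both cases less than 1 percentage point ahead of Camk2g-201. In the FASTQ-based tables Camk2g-201 led, with 25.9% in replicate 2 and 30.8% in replicate 1, and it also led by counts. Camk2g-212 and Camk2g-204 are short, of 673 nt and 722 nt, and have incomplete ends. Over the 6 Camk2g transcripts with incomplete ends, the share was 35.6% of TPM in replicate 2 and 32.6% in replicate 1, but 9.86% of counts in replicate 2 and 8.91% in replicate 1. Of the complete protein-coding transcripts, Camk2g-201 (coding sequence of 1587 nt) held 40.2 ± 1.54%, Camk2g-203 (1485 nt) 39.9 ± 0.658% and Camk2g-202 (1554 nt) 18.4 ± 0.141%. The FASTQ-based tables put Camk2g-201 well ahead, at 59.3 ± 2.19%, with Camk2g-203 at 23.4 ± 0.873% and Camk2g-202 at 13.4 ± 5.52%.

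The remaining genes each had 1 main transcript. Camk4-201 held 98.1% of Camk4 TPM in replicate 2 and 99.3% in replicate 1 in the alignment-based tables, and 68.8% in replicate 2 and 68.1% in replicate 1 in the FASTQ-based ones. The difference lay in Camk4-202, a transcript with an incomplete end (FASTQ-based 14.7% in replicate 2 and 21.3% in replicate 1), and in transcripts annotated as subject to nonsense-mediated decay. The decay class was listed at 0% in both alignment-based libraries and at 16.5% in replicate 2 and 10.6% in replicate 1 in the FASTQ-based tables. Within that class, Camk4-203 held 16.5% of FASTQ-based Camk4 TPM in replicate 2 and 2.18% in replicate 1. In the alignment-based tables Camkk1-201 held 85.2% of Camkk1 TPM in replicate 2 and 89.9% in replicate 1. Camkk2-201 held 73.2% and 78.3% of Camkk2 in the same order, and Camkv-201 70.2% and 75.1% of Camkv. The FASTQ-based shares were 63.6% in replicate 2 and 75.3% in replicate 1 for Camkk1-201. They were 57.6% and 63.3% for Camkk2-201 and 72.9% and 86.9% for Camkv-201 in the same order. Each of these 3 shares was lower in replicate 2 in both quantifications. Camkk2-211 held 10.6% in replicate 2 and 8.73% in replicate 1 in the alignment-based tables. Camkk2-207 (decay class) held 0% in both alignment-based libraries, against FASTQ-based shares of 15.3% and 4.14% in the same order. Camkk2-208 (incomplete end) held 0.788% and 0%, against 5.58% and 12.7%. Camkv-203 (decay class) held 1.91% and 0%, against 11.5% and 0.00590%.

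The share of retained-intron transcripts, which still contain an intron, was larger in replicate 2 for these 3 genes. In the alignment-based tables the excess was 4.71 percentage points in Camkk1, 1.40 in Camkk2 and 2.47 in Camkv. For Camkk2 and Camkv it was smaller than the reduction in the main transcript. In both quantifications the retained-intron share was higher in replicate 2 for 6 of the 6 family genes with such a transcript above 0. Among all detected protein-coding genes with one, it was higher in replicate 2 for 68% in the alignment-based and 67.9% in the FASTQ-based tables, with medians of 13.7% in replicate 2 and 11.7% in replicate 1 in the alignment-based ones. Camkk1 had 14.8% in replicate 2 and 10.1% in replicate 1, all of it in Camkk1-203. In the FASTQ-based tables Camkk1 had 30.8% and 17.2% in the same order. Camkv had 20.6% in replicate 2 and 18.1% in replicate 1, all of it in Camkv-202, and 11.8% and 10.3% in the FASTQ-based tables. The order of these genes thus differed between the quantifications. Camk2d had 25.6% in replicate 2 and 23.7% in replicate 1, and 30.6% and 21.6% in the FASTQ-based tables. Camk2a had the smallest share, 0.604% in replicate 2 and 0.443% in replicate 1. As these genes follow the direction of most genes, the count says nothing particular to the family.

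Within the kinase II genes, transcripts differ mostly in the variable linker between the kinase domain and the association domain that assembles the ring. The inclusion of an exon was taken as the percent of TPM in transcripts that hold it, of those that hold it or splice across it. The 10 genes have 30 such cassette exons, 23 of them in kinase II genes, and 10 of the 30 lay between 10% and 90% in both quantifications. The exons that follow are shown because the isoforms of the family differ by them.

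The 33-base exons of Camk2d and Camk2g are matching inserts at the start of the linker, known from the forms δB and γA to carry a nuclear localisation signal. They were identical at 26 of 33 bases, whereas the 33-base exon of Camk2b matched that of Camk2d at 7 of 33. The Camk2d exon lies at chr3:126802937-126802969 on the forward strand and the Camk2g exon at chr14:20747819-20747851 on the reverse strand, with differing bases in capitals.
Camk2d 33-base exon: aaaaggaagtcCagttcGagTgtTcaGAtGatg
Camk2g 33-base exon: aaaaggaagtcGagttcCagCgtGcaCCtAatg
Despite the likeness in sequence, the exons were used very differently. The Camk2g exon was included at 49.2% in replicate 2 and 46.6% in replicate 1, and the Camk2d exon at 1.23% in replicate 2 and 1.13% in replicate 1. The FASTQ-based means were 64.1 ± 3.51% for Camk2g and 2.53 ± 2.17% for Camk2d. The 33-base exon of Camk2a was included at 13.8% in replicate 2 and 13.3% in replicate 1, with a FASTQ-based mean of 8.52 ± 2.02%. Of the exons in Camk2g, Camk2a and Camk2d, inclusion was highest in Camk2g and second in Camk2a in both quantifications. The 33-base exon of Camk2b is alike in length only. It lies upstream of a 95-base exon of its gene, whereas the Camk2g exon lies downstream of one. The Camk2b exon was at 0.0751% in replicate 2 and 0.0620% in replicate 1, with a FASTQ-based mean of 3.54 ± 0.562%.

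Camk2d carries a pair of 73-base exons in the part of the gene that encodes the kinase, of which each annotated transcript in the comparison uses only 1. They were identical at 50 of 73 bases and lie at chr3:126770785-126770857 and chr3:126771774-126771846 on the forward strand. Capitals mark the differing bases.
Camk2d upstream 73-base exon: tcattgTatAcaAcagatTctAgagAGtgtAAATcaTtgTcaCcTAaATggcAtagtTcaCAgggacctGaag
Camk2d downstream 73-base exon: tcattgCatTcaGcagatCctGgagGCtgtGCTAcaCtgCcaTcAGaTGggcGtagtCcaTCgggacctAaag
The upstream exon was chosen at 85.05% in replicate 2 and 85.8% in replicate 1, which leaves 14.95% in replicate 2 and 14.2% in replicate 1 for the downstream exon. The FASTQ-based mean for the upstream exon was 82.5 ± 0.792%. This was among the steadiest Camk2d measures, since each quantification varied by less than 1 percentage point in SD.

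Further along the Camk2d linker, a 60-base exon (chr3:126805857-126805916) and a 42-base exon (chr3:126808208-126808249) were both included in most transcripts. Both exons belong to the leading transcript Camk2d-206, and neither has bases in capitals since no pair is compared.
Camk2d 60-base exon: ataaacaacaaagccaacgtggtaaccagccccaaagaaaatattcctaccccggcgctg
Camk2d 42-base exon: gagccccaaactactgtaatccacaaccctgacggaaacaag
The 60-base exon was included at 79.4% in replicate 2 and 77.8% in replicate 1, with a FASTQ-based mean of 79.6 ± 3.96%. The 42-base exon was included at 67.6% in replicate 2 and 64.0% in replicate 1. In the FASTQ-based tables its order turned, with 62.4% in replicate 2 and 76.2% in replicate 1. An 89-base exon near the end of the gene was included at 28.7% in replicate 2 and 29.0% in replicate 1.

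The Camk2g linker also mixes forms. A 69-base exon (chr14:20745792-20745860, reverse strand) is held by Camk2g-201 and Camk2g-202 and spliced out of Camk2g-203.
Camk2g 69-base exon: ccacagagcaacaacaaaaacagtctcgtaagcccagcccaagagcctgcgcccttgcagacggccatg
It was included at 38.8% in replicate 2 and 40.0% in replicate 1, with a FASTQ-based mean of 46.2 ± 1.00%. Without transcripts with incomplete ends, a choice made after seeing the data, the means were 61.6 ± 0.948% in the alignment-based and 77.5 ± 1.06% in the FASTQ-based tables. The 33-base exon then stood at 40.1 ± 0.169% and 60.7 ± 5.07% in the same order. A 63-base exon at 37.8% in replicate 2 and 35.5% in replicate 1 is held by transcripts with incomplete ends only, and a 114-base exon at 14.2% and 15.6% in the same order fell to a mean of 1.47 ± 1.02% without them.

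Camk2b included its linker exons nearly always or nearly never. A 75-base exon (chr11:5987057-5987131, reverse strand) is one of those held by Camk2b-209.
Camk2b 75-base exon: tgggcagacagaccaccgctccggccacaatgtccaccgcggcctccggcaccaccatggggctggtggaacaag
It was included at 98.0% in replicate 2 and 97.8% in replicate 1, with a FASTQ-based mean of 93.3 ± 0.331%. A 45-base and a 72-base exon had means of 98.0 ± 0.186% and 99.96 ± 0.0576%. A 114-base exon and a pair of 129-base exons further along had means between 0.313% and 0.749%, and at most 1.97% in the FASTQ-based tables. Of the cassette exons in Camk2b, none lay between 10% and 90%, whereas Camk2d had 5 and Camk2g 4 in that range in both quantifications. The Camk2d count includes both exons of the 73-base pair, which are alternatives to each other. The Camk2g count includes the 63-base and 114-base exons, which left the range without transcripts with incomplete ends.

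**Figure D4:**
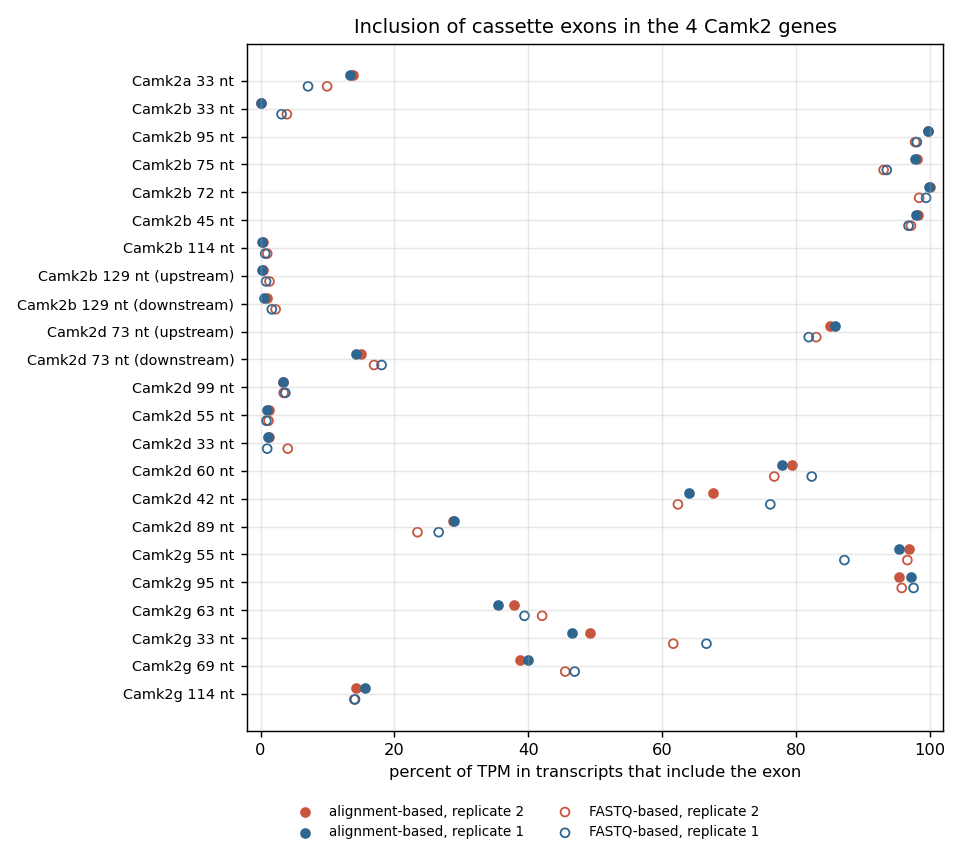
Inclusion of the 23 cassette exons of the kinase II genes, as percent of TPM in transcripts that include the exon, from the first to the last exon along each gene. Filled points are alignment-based and open points FASTQ-based, red for replicate 2 and blue for replicate 1. The Camk2b exons sit near 0% or 100%, and the 33-base exon lies far higher in Camk2g than in Camk2a and Camk2d.

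Between the libraries the family differed little. Replicate 2 over replicate 1 was measured on CPM (counts scaled to library size, here with TMM factors, and with 1 added before taking log2). Among genes with a mean CPM of 5 or more, 0 of 10 family genes differed by 2-fold, against 0.256% of 11721 genes. Past 1.25-fold there was 1 gene, Camk2d, against 7.55% of genes. Replicate 2 was the higher library for 2 of 10 genes, Camk2g and Camkk2, against 40% of all genes. The median size of the log2 ratio was 0.098 for the family and 0.093 for all genes.

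Camk2d had 132 CPM in replicate 2 and 172 CPM in replicate 1, a ratio of 0.768 with an exact 95% interval of 0.736 to 0.801 that covers counting error only. Camk2g had 209 CPM in replicate 2 and 188 CPM in replicate 1, a ratio of 1.11 (1.07 to 1.16). Camk2n2 followed with a log2 ratio of −0.19, Camkk1 with −0.14 and Camk2b with −0.11. The 5 others, Camk2n1, Camkv, Camk4, Camk2a and Camkk2, lay between −0.09 and 0.00, and the signs of Camk2a, Camk4 and Camkk2 depended on the scaling. In alignment-based TPM, unlike CPM, replicate 2 was also the higher library for Camk2a, Camk4 and Camkv. Of these, only Camkv was higher in replicate 2 in FASTQ-based TPM. With 1 library on each side these differences carry no p-value.

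**Figure D5:**
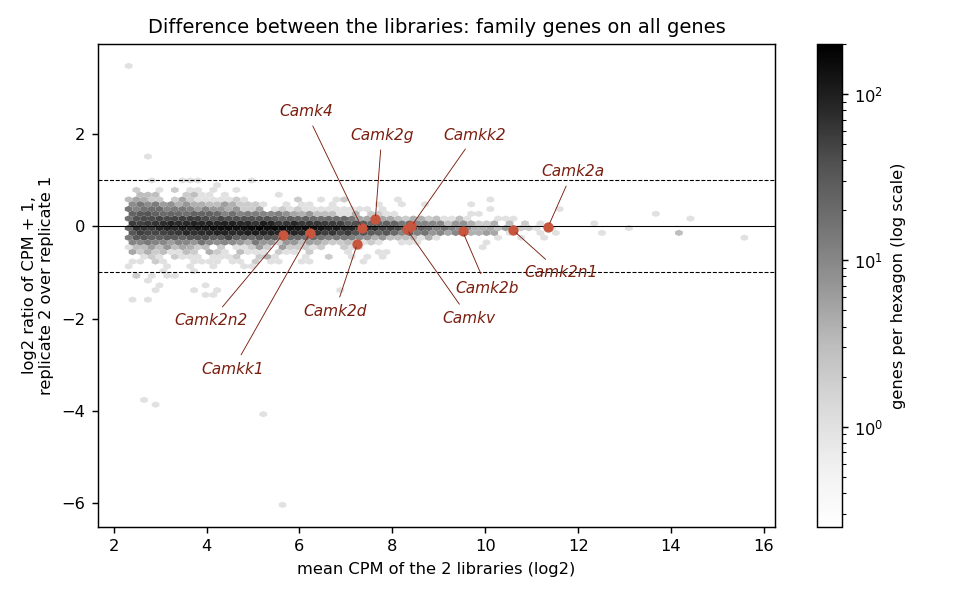
Log2 ratio of CPM + 1 in replicate 2 over replicate 1 against mean CPM, with 11721 genes as grey hexagons and the 10 family genes as red points. Dashed lines mark a 2-fold difference. Camk2d at −0.38 is the family gene farthest from 0, and all 10 lie well inside the lines.

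The labelled tissue held markers of cortical excitatory neurons, 6 of 6 detected, against 58.7% of nuclear protein-coding genes. They were led by the glutamate transporter gene Slc17a7 at a TPM of 617 ± 30.8. Markers of several cells and of the striatum differed between the libraries. Counts of markers by direction are in CPM, where 40% of all genes with a mean CPM of 5 or more were higher in replicate 2. Oligodendrocyte markers (5 of 5 higher in replicate 2) had a summed TPM of 2097 in replicate 2 and 1328 in replicate 1. For striatal neuron markers (6 of 6 lower in replicate 2) the sums were 255 in replicate 2 and 378 in replicate 1. For inhibitory neuron markers (6 of 6 lower in replicate 2) they were 478 and 536 in the same order. The log2 CPM ratios lay between −0.60 and −0.25 for Gad1, Gad2 and Slc32a1, and between −0.14 and −0.12 for Sst, Pvalb and Vip. Whether the inhibitory and striatal differences are separate was not tested. Excitatory projection neuron markers (6 of 6 higher in replicate 2) had sums of 887 in replicate 2 and 805 in replicate 1. These sums are mostly Slc17a7, with a TPM of 639 in replicate 2 and 596 in replicate 1. In CPM the log2 ratios ran from 0.02 for Slc17a7 to 0.49 for Neurod6, with a median of 0.15. Astrocyte, microglia and endothelium markers differed less, with sums of 360, 105 and 48.1 in replicate 2 and 353, 99.2 and 44.1 in replicate 1. The part of these differences in the Camk2d and Camk2g ratios was not tested.

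The other genes of the pathway were detected as well, against 58.7% of nuclear protein-coding genes. All 4 kinase I genes were detected, and Camk1d led with a TPM of 52.0 ± 2.33, followed by Camk1 with 47.3 ± 0.537, Pnck with 41.4 ± 0.431 and Camk1g with 14.6 ± 2.18. In the FASTQ-based tables Pnck led instead, with 86.8 in replicate 2 and 95.7 in replicate 1, against 71.1 and 66.4 for Camk1d and 67.9 and 73.1 for Camk1 in the same order. In the alignment-based tables each kinase I gene was below Camk2d and Camk4 in mean TPM. The 6 genes of calmodulin and its buffers were all detected, from Nrgn, a postsynaptic protein that holds calmodulin at low calcium, at 1028 ± 50.4 to Gap43 at 139 ± 16.6.

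All 12 postsynaptic partners and substrates of kinase II were detected, from the scaffold gene Dlg4 at 422 ± 8.28 to Actn2, an actin cross-linker, at 8.91 ± 1.05. The 12 targets of Camkk and Camk4 ran from the transcription factor gene Mef2c at 309 ± 11.7 to Prkaa1, a catalytic subunit of AMPK, at 8.43 ± 0.318. All 9 phosphatase genes were detected, from the calcineurin subunit gene Ppp3ca at 388 ± 1.51 to Ppm1f, which removes phosphate from kinase II, at 20.7 ± 2.17. None of the 43 genes in these lists passed 2-fold between libraries in either direction, against 0.256% of all genes. At that share the count says nothing particular to these lists. In CPM, replicate 2 was the higher library for 0 of 4 kinase I genes, 1 of 6 genes of calmodulin and its buffers, 5 of 12 postsynaptic genes, 4 of 12 targets and 0 of 9 phosphatase genes, against 40% of all genes.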

How the data were processed

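Per the description that accompanies the files, the authors quantified each library on mm10 with GENCODE M21, once from aligned reads and once directly from FASTQ. The sources used here do not name the aligner or quantifiers. Per the file headers, the alignment-based tables deposited hold TPM and an expected count for each gene and transcript, and each transcript's percent of its gene. From the FASTQ-based table deposited by the authors, TPM and the estimated count of each transcript were taken and summed over genes. The authors scaled TPM over all entries. Deposited intervals of other kinds were not used.

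Entries that name no gene, spike-ins included, held 0.378% of expected counts in replicate 2 and 0.350% in replicate 1 and stayed out of library sizes. Expected counts were rounded to whole numbers and scaled with TMM factors (1.01 in replicate 2, 0.987 in replicate 1) in edgeR 4.0.16 under R 4.3.3; DESeq2 1.42.0 gave alternative size factors. A count of 0 leaves room for 3 counts, or 0.109 CPM in replicate 2 and 0.0974 CPM in replicate 1. Intervals of count ratios are exact, at 95%, and hold counting error alone, since molecules were not tagged. Inclusion, shares and ratios were computed in each library and then averaged. Incomplete ends are those the annotation marks. The scripts were tested on simulated data. Python 3.11.15, pandas 2.3.3 and scipy 1.17.1 were used.

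The family genes, marker lists and pathway lists were chosen with earlier results of these data known. Genes were named as follows: every family gene, the transcripts with at least 10% of their gene's TPM in any library and quantification, all kinase I genes, and the highest and lowest gene of each pathway list. Transcripts under 10% and Slc17a7 were named after their values were seen. Some results are not reported here. Alternatives covered the quantification, length correction, pseudocount, detection minimum, scaling factors, fold of the size rule, transcripts with incomplete ends and each library alone. No protein sequences were used here.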

Additional observations from a re-analysis of the deposited data

How the results depend on the processing

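No paired analysis was possible because the samples form a single group. The gene ratios and shares kept their direction under the alternatives run. The log2 replicate ratios of Camk2a, Camk4 and Camkk2 changed sign near 0, and in the FASTQ-based tables the libraries changed places for the Camk2d 42-base exon. In CPM, without length correction, the order of levels changed, with Camk2n2 (49.7) below Camkk1 (74.97) and Camkk2 (339.8) above Camkv (316). Over 40 alternative replicate ratios, 33 stayed within the counting interval, and all ranged from −0.41 to 0.19. Taking counts without length correction moved the kinase II shares to 70.8% for Camk2a, 19.7% for Camk2b and 5.37% for Camk2g. It moved the log2 ratios to 1.84 for Camk2a over Camk2b, −0.40 for Camk2d over Camk2g, 4.97 for Camk2n1 over Camk2n2, 2.18 for Camkk2 over Camkk1, −1.06 for Camk4 over Camkk2, −3.05 for Camkv over Camk2a, −0.75 for Camk2n1 over Camk2a and −1.21 for summed inhibitors over summed kinase II genes. The FASTQ-based TPM moved the Camk2b share to 17.8% and the log2 ratios to 1.95 for Camk2a over Camk2b, 3.36 for Camk2n1 over Camk2n2, 2.17 for Camkk2 over Camkk1, −0.21 for Camk4 over Camkk2, −2.80 for Camkv over Camk2a and −1.46 for the inhibitors over kinase II genes. A pseudocount of 1 gave −2.83 for Camkv over Camk2a, past its very small spread. Except for the length correction, the cause was not tested. Each library alone gave all 10 genes detected and 7 with an unchanged leading transcript across quantifications; the Camk2d over Camk2g log2 ratio ranged from −1.33 to −0.71 and Camk2a over Camk2b from 1.88 to 1.94. Transcript shares and exon inclusion rest on how each quantifier divides reads between overlapping transcripts.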
